A study of Mus musculus with 2 samples.

Results

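The genes described here are 10 genes of the intestinal crypt: Lgr5, Ascl2, Olfm4, Smoc2, Slc12a2, Sox9, Ephb2, Ephb3, Prom1 and Cd44. They were found by gene symbol, and all 10 were present among the 31053 genes measured in each of 2 single-cell libraries. The libraries came from the proximal small intestine of 2 mice of the genotype VilCreER Apc fl/fl, called APC below, in which tamoxifen activates a Villin-driven Cre recombinase and deletes the tumour suppressor Apc. Each mouse received 2 intraperitoneal injections of 2 mg tamoxifen with an interval of 24 h and was sampled on day 4. Both mice belong to this 1 group and no mouse with intact Apc was analysed, so every comparison is between classes of cells within the same mice and none concerns the effect of Apc loss. Villin drives Cre in the intestinal epithelium, so the leukocytes of these mice are expected to keep Apc, and the deletion was not measured cell by cell. Live cells were kept by sorting against DAPI with no selection for epithelium, and RNA molecules were counted by unique molecular identifiers (UMIs) at the 3′ end of transcripts with 10x v3 chemistry.

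The intestinal epithelium is renewed from stem cells at the base of the crypts, which lie between Paneth cells and feed a zone of rapidly dividing progenitors whose offspring become enterocytes as they move onto the villus. Wnt signals, raised further by R-spondin acting on Lgr5, keep this compartment active. In cells with Apc the Wnt effector beta-catenin is continuously destroyed, and several of the genes described here, among them Ascl2, Sox9, Ephb2, Ephb3 and Cd44, are known targets of beta-catenin and its TCF partners. Olfm4 and Smoc2 are widely used as markers of crypt-base columnar cells.

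A barcode was kept if it had more than 100 genes and 400 UMIs, with mitochondrial transcripts below 5% and haemoglobin below 10% of its total. This left 7941 barcodes in mouse 1 and 6957 in mouse 2 with medians of 4381 and 2803 UMIs. The epithelial barcodes were those with no UMI of the leukocyte gene Ptprc and at least 1 UMI of the epithelial gene Epcam, after removal of barcodes carrying plasma cell, pancreatic acinar or other immune markers. They numbered 676 and 149, or 8.51% and 2.14% of the kept barcodes. Those with a UMI of the proliferation genes Mki67 or Top2a were called cycling (110 and 38 barcodes). Non-cycling barcodes were called enterocyte-like when 15 enterocyte markers held at least 1% of their UMIs (500 and 79). Paneth-like barcodes had at least 1% of UMIs in 16 Paneth markers (15 and 14, of which 10 and 6 carried Epcam), and 56 and 26 non-cycling epithelial barcodes passed neither limit. Leukocytes were barcodes with Ptprc and no Epcam (3827 and 4786). The median number of UMIs was 11346 and 17894 in cycling barcodes, 5164 and 3698 in enterocyte-like barcodes and 3542 and 2645 in leukocytes, so a rare transcript is more easily seen in a cycling barcode. Median mitochondrial shares were 0.0349% and 0.0754% in cycling barcodes, 0.0352% and 0% in enterocyte-like barcodes and 2.21% and 2.78% in leukocytes. The part of this difference in the comparisons was not tested. Levels are given in CPM, the UMIs of a gene in the summed barcodes of a class scaled to a total of 1000000. The limit set by a count of 0 (3 UMIs) was 1.75 and 4.41 CPM in cycling barcodes, 0.899 and 7.41 in enterocyte-like, 9.76 and 13.9 in the other non-cycling, 31.6 and 75.9 in Paneth-like barcodes, and 0.122 and 0.163 in leukocytes. The libraries shared 24 cell barcode sequences, of which 1 lay among the epithelial barcodes of both mice. In mouse 1, a cycling barcode with 155278 UMIs held 9.06% of all UMIs of its class, and its share of each gene is given where it matters. No replicate pair was available beyond these 2 mice, and intervals quoted for UMI counts or shares cover counting error only.

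Positions of the genes are on the mouse build GRCm38, which corresponds to mm10, as annotated by GENCODE M21, and all 10 genes are protein-coding. Lgr5 lies on chromosome 10 from 115450311 to 115587780 on the minus strand, Ascl2 on chromosome 7 from 142966829 to 142969264 (minus), Olfm4 on chromosome 14 from 79984081 to 80023139 (plus) and Smoc2 on chromosome 17 from 14279506 to 14404790 (plus). Sox9 lies on chromosome 11 from 112782224 to 112787760 (plus), Ephb2 on chromosome 4 from 136647539 to 136835988 (minus) and Ephb3 on chromosome 16 from 21204755 to 21223305 (plus). Prom1 spans 43993620 to 44102032 of chromosome 5 (minus) and Cd44 spans 102811141 to 102901665 of chromosome 2 (minus). The 250 bases before the RefSeq start sites (GRCm38.p6) were available for 6 of the genes, Ascl2, Olfm4, Ephb2, Ephb3, Prom1 (2 start sites) and Cd44. Those of Ascl2 and Olfm4 are printed because these genes were higher in cycling barcodes under every comparison made within the epithelium. Capitals mark the E-box letters CANNTG, the type of sequence bound by basic helix-loop-helix factors such as Ascl2, and each line reads 5′ to 3′ on the strand of the gene.

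Ascl2, chr7:142969265-142969514, minus strand: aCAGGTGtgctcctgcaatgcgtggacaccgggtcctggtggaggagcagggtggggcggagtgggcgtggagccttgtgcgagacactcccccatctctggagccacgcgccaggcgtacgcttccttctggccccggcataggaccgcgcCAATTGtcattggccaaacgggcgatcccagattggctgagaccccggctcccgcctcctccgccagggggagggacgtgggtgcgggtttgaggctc

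Olfm4, chr14:80000052-80000301, plus strand: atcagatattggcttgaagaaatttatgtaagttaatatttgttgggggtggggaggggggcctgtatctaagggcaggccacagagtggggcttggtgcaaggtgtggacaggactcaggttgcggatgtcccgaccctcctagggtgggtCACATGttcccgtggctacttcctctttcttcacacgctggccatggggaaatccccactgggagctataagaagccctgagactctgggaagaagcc

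An E-box was found in 5 of the 7 windows of these genes, at 249 and 98 bases before the start of Ascl2 and at 98 bases before that of Olfm4, and in 66.2% of all 32851 windows of the same length. The TCF-type letters CTTTGA or CTTTGT, searched on both strands, were in none of the 7 windows and in 27.6% of all windows. These counts describe letters only and do not show binding. The Olfm4 window lies inside the GENCODE span of the gene, which begins at 79984081. Its distance of 98 bases therefore refers to the RefSeq start and not to the first base of that span.

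Cycling epithelial barcodes were first compared with enterocyte-like barcodes, which places the crypt beside the villus. Of the 10 genes, 8 were higher in cycling barcodes, Sox9 and Ephb2 did not pass the test, and none was lower (edgeR quasi-likelihood test on UMI sums per mouse and class, adjusted p under 0.05 over 6817 genes tested). Over all genes tested, 16.2% were higher and 17.3% lower. Lgr5, Olfm4, Smoc2 and Ephb3 had at most 4 UMIs per mouse in enterocyte-like barcodes. They passed the filter on low counts through the classes where they were higher, so they could hardly have been called lower. The same holds for Ascl2, Ephb2, Prom1 and Cd44, which had at most 12.0 CPM in the enterocyte-like barcodes of either mouse. Slc12a2, at 4.5 CPM in those of mouse 1, also needed the other classes to pass. Only Sox9 passed through its enterocyte-like level alone. The lack of lower genes and the median of the 10 genes were therefore partly set by the filter. The median log2 fold change was 3.73 for the 10 genes and 0.02 for all genes. Setting Lgr5 to its lower bound could not move this median, because both its values lie above it. The median lies between the values of Ascl2 and Ephb3, and Ephb3 had 0 UMIs in the enterocyte-like barcodes of mouse 2. With the mouse as a block 9 of the 10 genes were higher, Ephb2 being the gene gained.

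**Figure D1:**
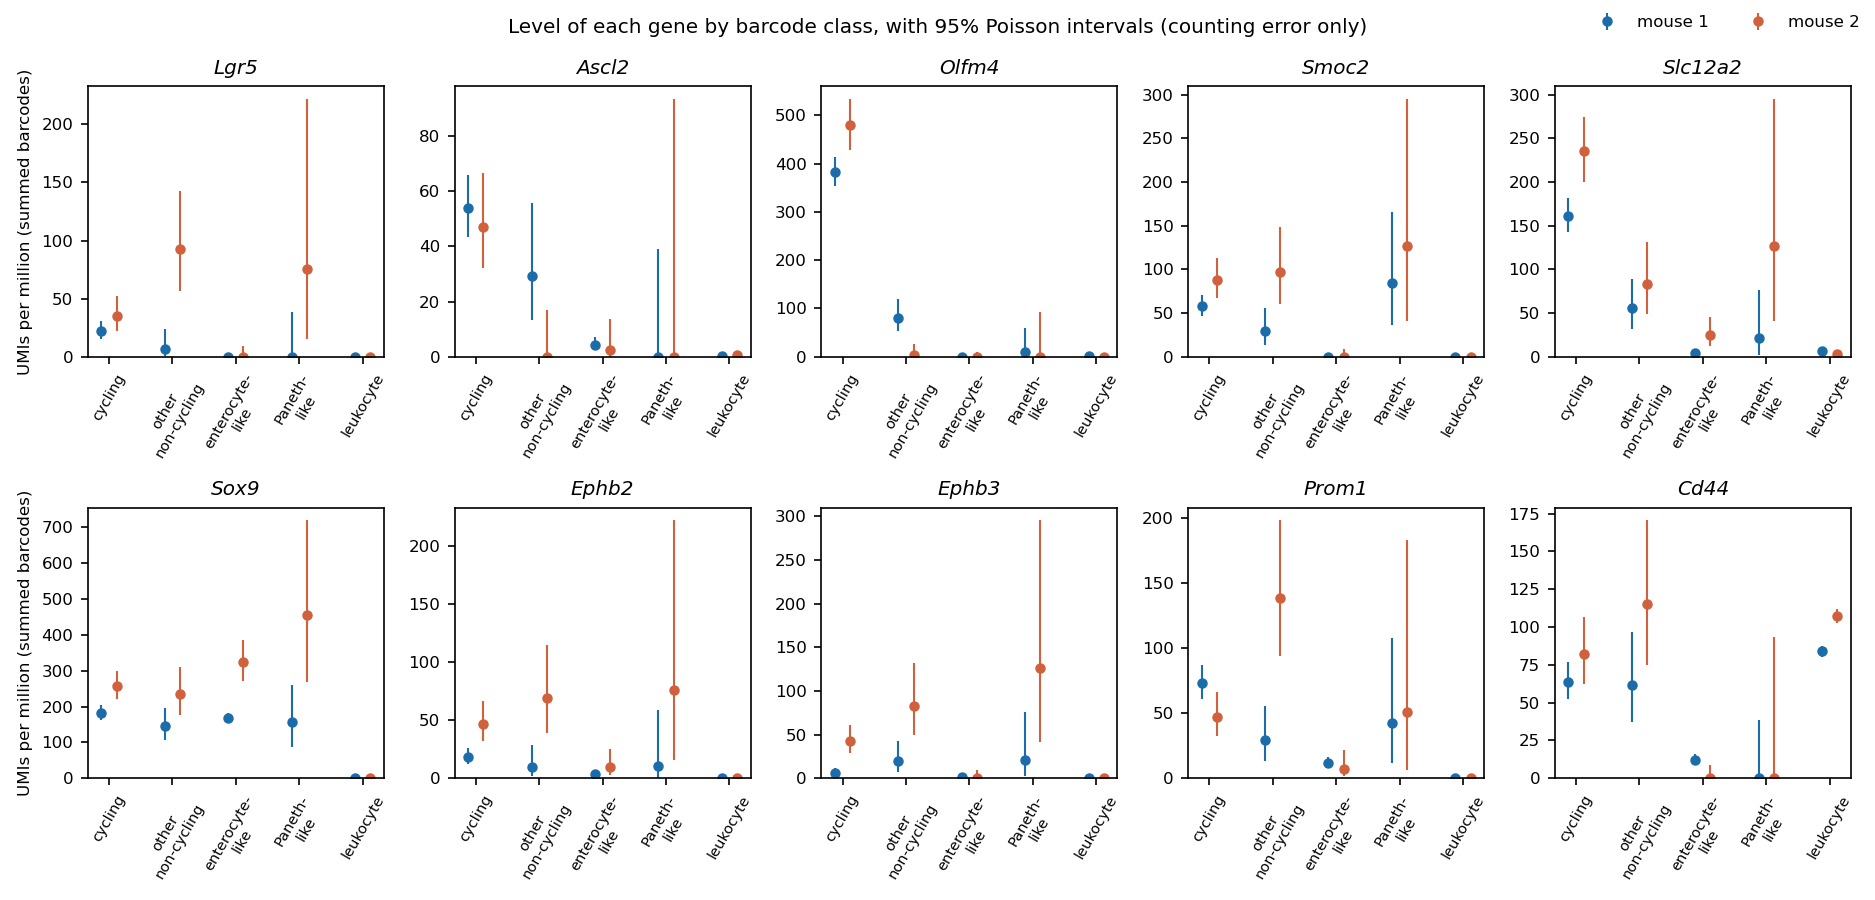
Level of each of the 10 genes (vertical axis, CPM of the summed barcodes, linear from 0) in 5 barcode classes (horizontal axis), with 1 point per mouse and 95% Poisson intervals for counting error. Olfm4 stood at 383 and 479 in cycling barcodes and at 0.6 and 0 in enterocyte-like barcodes, Sox9 lay between 146 and 455 in all 4 epithelial classes, and Cd44 was the gene with a high level in leukocytes.

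Lgr5, the R-spondin receptor that marks crypt-base stem cells, had 22.2 CPM in the cycling barcodes of mouse 1 and 35.3 in those of mouse 2 (28.7 ± 9.26, SD, n = 2). Enterocyte-like barcodes held no Lgr5 UMI in either mouse, among 500 barcodes in mouse 1 and 79 in mouse 2, which allows a share of up to 0.6% and 3.80% of barcodes with a UMI. Lgr5 was higher in cycling barcodes in the edgeR test on sums per mouse (adjusted p = 0.0158). With both mice pooled (62 UMIs against 0), it was at least 32.3-fold higher there. The limit was 3 UMIs over both mice, and mouse 1 held most enterocyte-like UMIs, so this bound does not hold for each mouse. Within mice the limits were 0.899 and 7.41 CPM, beside the 22.2 and 35.3 of cycling barcodes. With plasma, acinar and immune barcodes left in, the adjusted p of Lgr5 was 0.0505 and the call was lost. The transcription factor Ascl2, which acts with Wnt signalling to set the stem cell programme, had 53.7 and 47 CPM in cycling and 4.2 and 2.47 in enterocyte-like barcodes. Its log2 fold change was 3.44 ± 0.79 (SE, adjusted p = 0.0146).

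Olfm4, a secreted olfactomedin glycoprotein, had 383 and 479 CPM in cycling barcodes, from 656 and 326 UMIs, against 2 UMIs and 0 UMIs in enterocyte-like barcodes. The ratio over both mice was 767 (95% counting interval 212 to 6343). The edgeR test on sums per mouse gave an adjusted p of 0.00239. Smoc2, a matricellular protein that binds calcium, had 57.7 and 88.2 CPM in cycling barcodes and 1 UMI and 0 UMIs in enterocyte-like barcodes. Its ratio over both mice was 248 (43.9 to 9872), and the same edgeR test gave an adjusted p of 0.00239. Both genes were therefore close to the limit of detection in the villus-type cells of both mice.

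Slc12a2, the sodium, potassium and chloride cotransporter of secretory crypt cells, is on chromosome 18 from 57878678 to 57946821 on the plus strand. It had 162 and 235 CPM in cycling barcodes and 4.5 and 24.7 in enterocyte-like barcodes, a log2 fold change of 4.11 ± 0.68 (adjusted p = 0.0053). The mice differed in the level left in enterocyte-like cells, with single-mouse log2 ratios of 4.82 and 3.03.

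The ephrin receptors Ephb2 and Ephb3 guide the placing of cells along the crypt. Ephb2 had 18.1 and 47 CPM in cycling and 3.3 and 9.88 in enterocyte-like barcodes, and its log2 fold change of 2.47 ± 0.90 did not pass the test (adjusted p = 0.0687, and 0.00634 with the mouse as a block). Ephb3 had 6.42 and 42.6 in cycling barcodes, from 11 and 29 UMIs, and 4 UMIs and 0 UMIs in enterocyte-like barcodes. It was higher by 4.03 ± 1.26 on the log2 scale (adjusted p = 0.0419), with single-mouse log2 ratios of 1.88 and 6.41. The call was lost without barcodes over 100000 UMIs (adjusted p = 0.0502) and with plasma, acinar and immune barcodes left in (3.71, adjusted p = 0.109). In cycling barcodes both receptors thus had higher levels in mouse 2 than in mouse 1.

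Prom1, which encodes the membrane protein CD133, had 72.9 and 47 CPM in cycling and 11.7 and 7.41 in enterocyte-like barcodes, a log2 fold change of 2.29 ± 0.65 (adjusted p = 0.0299). Of the 125 Prom1 UMIs in the cycling barcodes of mouse 1, 59 were in the barcode with 155278 UMIs, and without it the level was 42.3. The call was kept without barcodes over 100000 UMIs (adjusted p = 0.0353) and lost with plasma, acinar and immune barcodes left in (1.81, adjusted p = 0.108). Cd44, a receptor for hyaluronan, had 63.6 and 82.3 in cycling and 12.0 and 0 in enterocyte-like barcodes, a log2 fold change of 2.76 ± 0.66 (adjusted p = 0.0166).

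Sox9 showed no difference larger than the spread between mice. This HMG-box factor, known in crypt progenitors, Paneth cells and some secretory cells, had 183 and 259 CPM in cycling barcodes and 169 and 326 in enterocyte-like barcodes. The log2 fold change was -0.35 ± 0.37 (adjusted p = 0.486), and over the 12 settings tried the adjusted p lay between 0.308 and 0.671. Sox9 UMIs were seen in 48.8% and 46.8% of enterocyte-like barcodes, and in 69.1% and 68.4% of cycling barcodes, which were sequenced more deeply. At a fixed depth of 1000 UMIs per barcode the shares were 16.5% and 25.0% in enterocyte-like and 16.1% and 21.4% in cycling barcodes. In leukocytes of the same libraries, 0.810% and 0.334% of barcodes had a Sox9 UMI at median depths of 3542 and 2645, far below the shares in enterocyte-like barcodes.

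**Figure D2:**
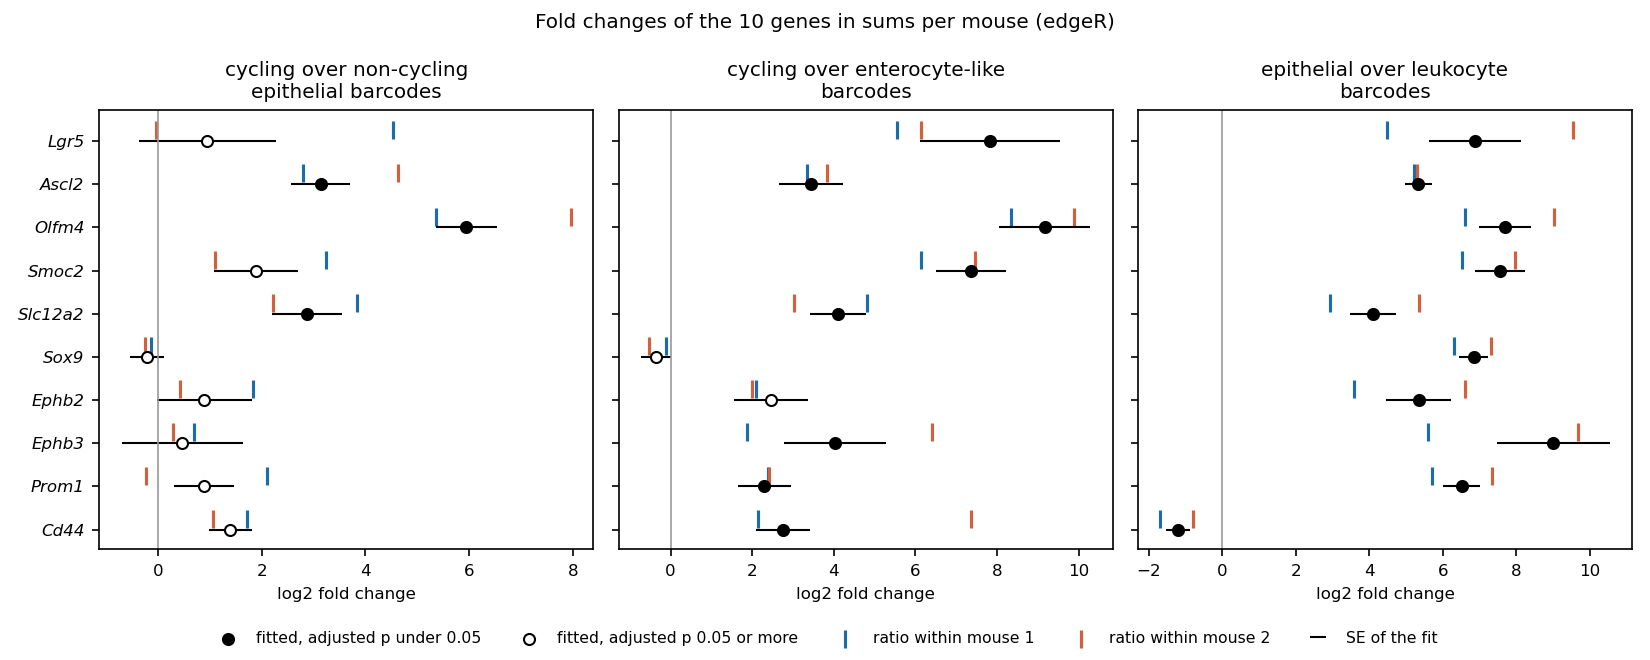
Log2 fold changes (horizontal axes) of the 10 genes in 3 comparisons of UMI sums, with the fitted value and its SE in black (filled where the adjusted p was under 0.05) and the ratio within each mouse as coloured ticks. The 2 mice lay on the same side of 0 for every gene in the middle and right panels, and on opposite sides for Lgr5 and Prom1 in the left panel.

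Largely the same barcodes were also ordered along the enterocyte markers, so this view is not independent of the comparison above. All epithelial barcodes, cycling or not, were placed in 5 bins by the share of their UMIs in the enterocyte markers. Cycling barcodes were 82 of 112 and 26 of 41 in the lowest bin and 0 of 63 and 2 of 48 in the highest. From the lowest bin (under 0.1%, 112 and 41 barcodes) to the highest (10% or more, 63 and 48 barcodes), Olfm4 went from 404 and 390 CPM to no UMI in either mouse, and Slc12a2 from 174 and 210 to 0 and 8.01. All 40 Lgr5 UMIs of mouse 1 were in the lowest bin, and of those of mouse 2, 45 were in the lowest bin and 2 in the bin from 0.1% to 1%. Prom1 declined step by step in mouse 1, from 78.5 through 28.2, 26.0 and 10.3 to 0, and Cd44 from 69.4 through 44.3, 26.0 and 10.7 to 2.36. In mouse 2, Prom1 went from 84.5 through 34.3, 20.1 and 8.48 to 0, whereas Cd44 had 87.4 in the lowest bin, 120 in the next and no UMI above. Sox9 was 194 and 281 in the lowest bin and 135 and 352 in the highest, with its lowest values, 96.6 and 109, in the bin from 0.1% to 1%. Ascl2 in mouse 2 had 60.2 in the bin from 1% to 3%, which held only 10 barcodes and 6 Ascl2 UMIs. The bin from 0.1% to 1% differed between the mice: Olfm4 stood at 48.3 in mouse 1 and 338 in mouse 2.

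**Figure D3:**
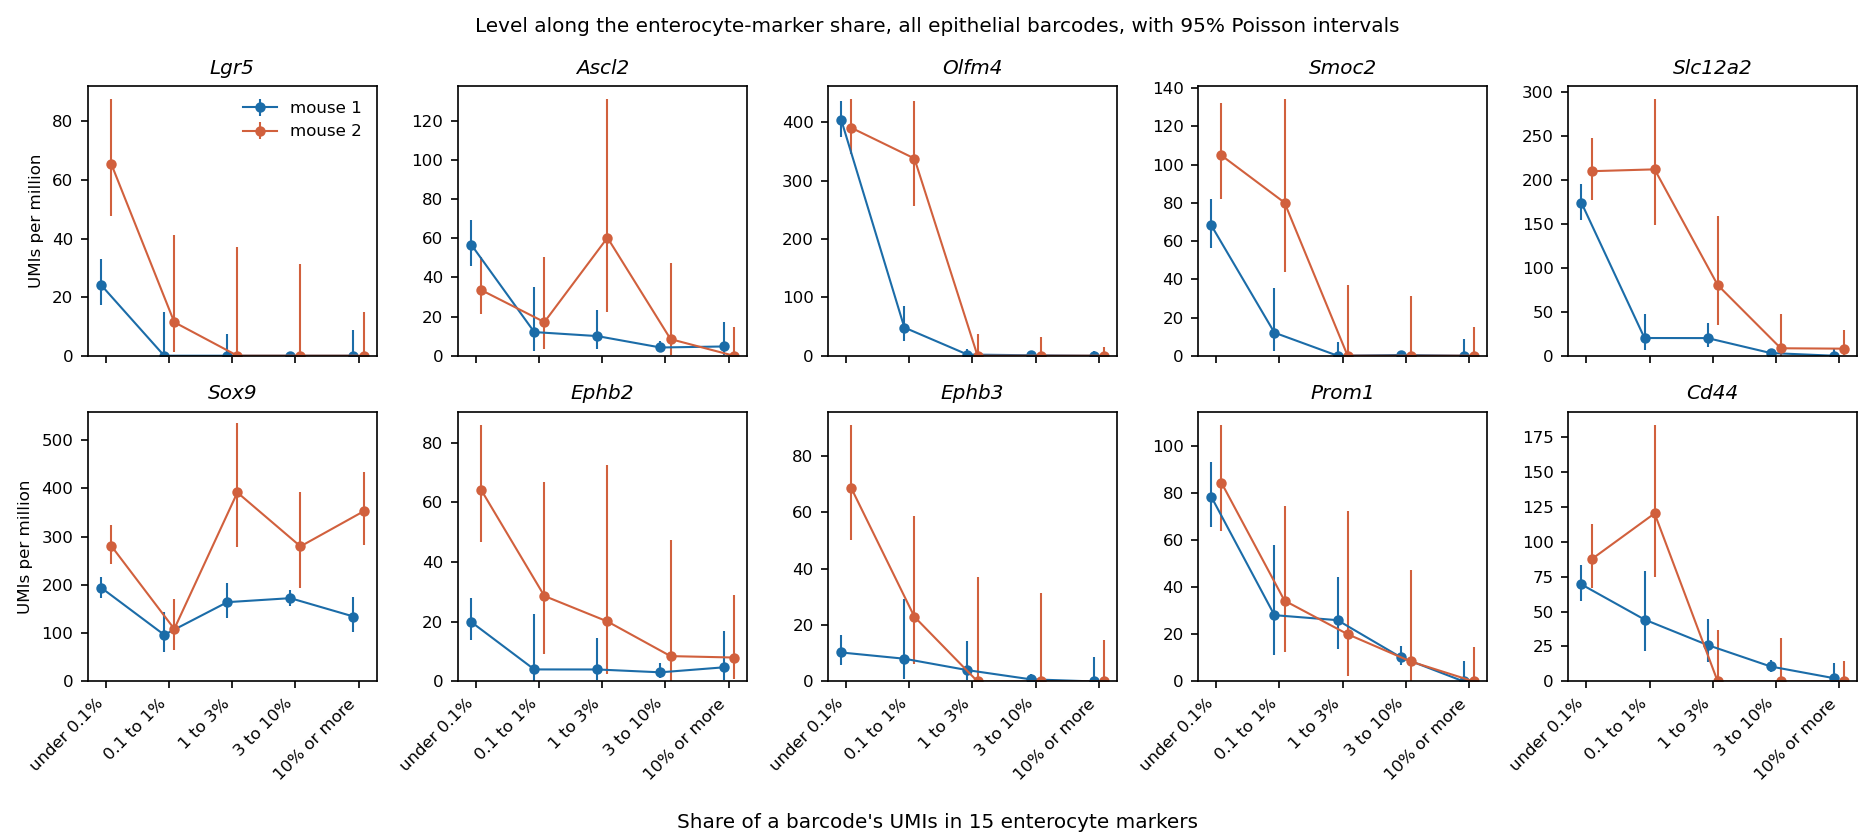
Level of each gene (CPM, linear from 0) in epithelial barcodes binned by the share of UMIs in 15 enterocyte markers, with a line per mouse and 95% Poisson intervals. The levels of 9 genes were lower in the highest bin than in the lowest in both mice, while Sox9 rose and fell between 96.6 and 392.

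Cycling barcodes were also divided along this axis. Those with enterocyte markers under 1% (93 and 32 barcodes) held 655 of the 656 Olfm4 UMIs of mouse 1 and all 326 of mouse 2, and every Lgr5 and Smoc2 UMI of the cycling class in both mice. Those with 1% or more (17 and 6 barcodes, median enterocyte-marker shares of 3.45% and 3.07%) held 27 and 28 Sox9 UMIs, or 138 and 450 CPM, and 4 and 6 Ascl2 UMIs. The barcodes under 1% also held 88.6% and 90.9% of all UMIs of the class. A count of 0 in the barcodes at 1% or more allows up to 15.3 and 48.3 CPM, beside 25.0 and 38.8 Lgr5 CPM in those under 1%, so a difference in Lgr5 was not detectable at this depth in mouse 2. Within the barcodes under 1%, Olfm4 varied from 0 to 2252 CPM in mouse 1 and to 2761 in mouse 2, with medians of 114 and 71.0, and 12 and 6 barcodes had 10 or more Olfm4 UMIs.

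Cycling barcodes were next set against all non-cycling epithelial barcodes (566 and 111), which hold the enterocyte-like class together with the others. The cycling barcodes are the same as above, so the comparisons are not independent. Of the 10 genes, 3 were higher (Ascl2, Olfm4 and Slc12a2) and none lower, at 9.06% of all 8353 genes higher and 10.9% lower. Olfm4 had 28 UMIs and 1 UMI in non-cycling barcodes, and Ascl2 had 23 UMIs and 1 UMI. Both passed the filter on low counts through the cycling class, so they could hardly have been called lower. Lgr5, Smoc2, Ephb2 and Ephb3, at most 4.82 CPM in the non-cycling barcodes of mouse 1, also needed the cycling class to pass. The lack of lower genes and the median of the 10 genes were therefore partly set by the filter. With the mouse as a block 8 of the 10 were higher, all but Sox9 and Ephb3, in a fit that called 1596 genes higher and 1943 lower in place of 757 and 912. Olfm4 was higher by 5.95 ± 0.58 on the log2 scale (adjusted p = 0.00501), Ascl2 by 3.14 ± 0.57 (adjusted p = 0.0164) and Slc12a2 by 2.87 ± 0.67 (adjusted p = 0.0304). With at least 2 Epcam UMIs required, Slc12a2 had an adjusted p of 0.0551. Cd44 (1.39 ± 0.42, adjusted p = 0.0614) and Smoc2 (1.88 ± 0.81, adjusted p = 0.151) did not pass, nor did Ephb2 (0.89 ± 0.91), Ephb3 (0.47 ± 1.17) and Sox9 (-0.21 ± 0.33). The median log2 fold change of the 10 genes was 1.17, and within single mice it was 2.45 in mouse 1 and 0.74 in mouse 2.

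The mice differed in the non-cycling barcodes that were neither enterocyte-like nor Paneth-like. In mouse 1 these 56 barcodes had 6.51 Lgr5 CPM and in mouse 2 the 26 barcodes had 92.4, more than the 35.3 of cycling barcodes there. Lgr5 accordingly had a log2 ratio of 4.54 in mouse 1 and of -0.045 in mouse 2, and no call in the fit (0.95 ± 1.32, adjusted p = 0.651). Of the 20 Lgr5 UMIs in this class in mouse 2, 14 were in 1 barcode of 17622 UMIs, and without it the level was 30.2 CPM (95% Poisson interval 11.1 to 65.7), no longer above that of cycling barcodes. Prom1 had 29.3 and 139 CPM in this class, Ephb3 19.5 and 83.1, Ephb2 9.76 and 69.3, and Smoc2 29.3 and 97.0. Prom1 had log2 ratios of 2.10 and -0.23 and did not pass the test (0.89 ± 0.58, adjusted p = 0.321).

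Olfm4 and Ascl2 showed the reverse order in these barcodes. Olfm4 had 81.4 CPM in mouse 1 and 4.62 in mouse 2 (25 UMIs and 1 UMI), and Ascl2 had 29.3 and no UMI. The class was not alike in the mice: 6 of 56 barcodes in mouse 1 and 9 of 26 in mouse 2 had at least 1% of UMIs in goblet, enteroendocrine or tuft markers, and the median mitochondrial share was 0.164% and 1.40%. In the 17 barcodes of mouse 2 below that secretory limit, Lgr5 stood at 167 CPM and Olfm4 at 9.84. The barcode with 14 Lgr5 UMIs was among these, and without it 3 UMIs were left, or 35.7 CPM (7.36 to 104). The part of class make-up in the difference between the mice was not tested.

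Seen from the genes, most barcodes with Olfm4 were cycling, 54 of 65 (83.1%) in mouse 1 and 18 of 19 (94.7%) in mouse 2. Cycling barcodes held 95.9% and 99.7% of the Olfm4 UMIs of the epithelium, against 31.5% and 51.2% of all its UMIs. For Lgr5 the cycling share of positive barcodes was 87.5% (14 of 16) and 60% (9 of 15), for Ascl2 66.7% and 92.9%, for Smoc2 72.1% and 68.2%, and for Slc12a2 69.5% and 55.6%. For Sox9 it was 22.3% and 34.7%, above the 10.1% and 16.2% among barcodes without Sox9, whose depth was lower. Barcodes with a UMI of a given gene had a higher median depth than those without it for all 10 genes in both mice, for example 22520 and 5475 UMIs for Lgr5 in mouse 1 and 24165 and 4268 for Ascl2 in mouse 2. The part of depth in these shares was not tested.

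Every epithelial barcode with an Lgr5 UMI could be examined, since there were only 16 in mouse 1 and 15 in mouse 2. In mouse 1, 14 were cycling, 2 were in the other non-cycling class and none was Paneth-like or enterocyte-like. In mouse 2, 9 were cycling, 5 were in the other non-cycling class and 1 was Paneth-like. The highest Lgr5 count in a barcode was 9 UMIs in mouse 1 and 14 in mouse 2, and 85% and 89.4% of the Lgr5 UMIs lay in the top 10 barcodes. Most positive barcodes had 1 or 2 UMIs, so a barcode without an Lgr5 UMI is not shown to lack the transcript.

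**Figure D4:**
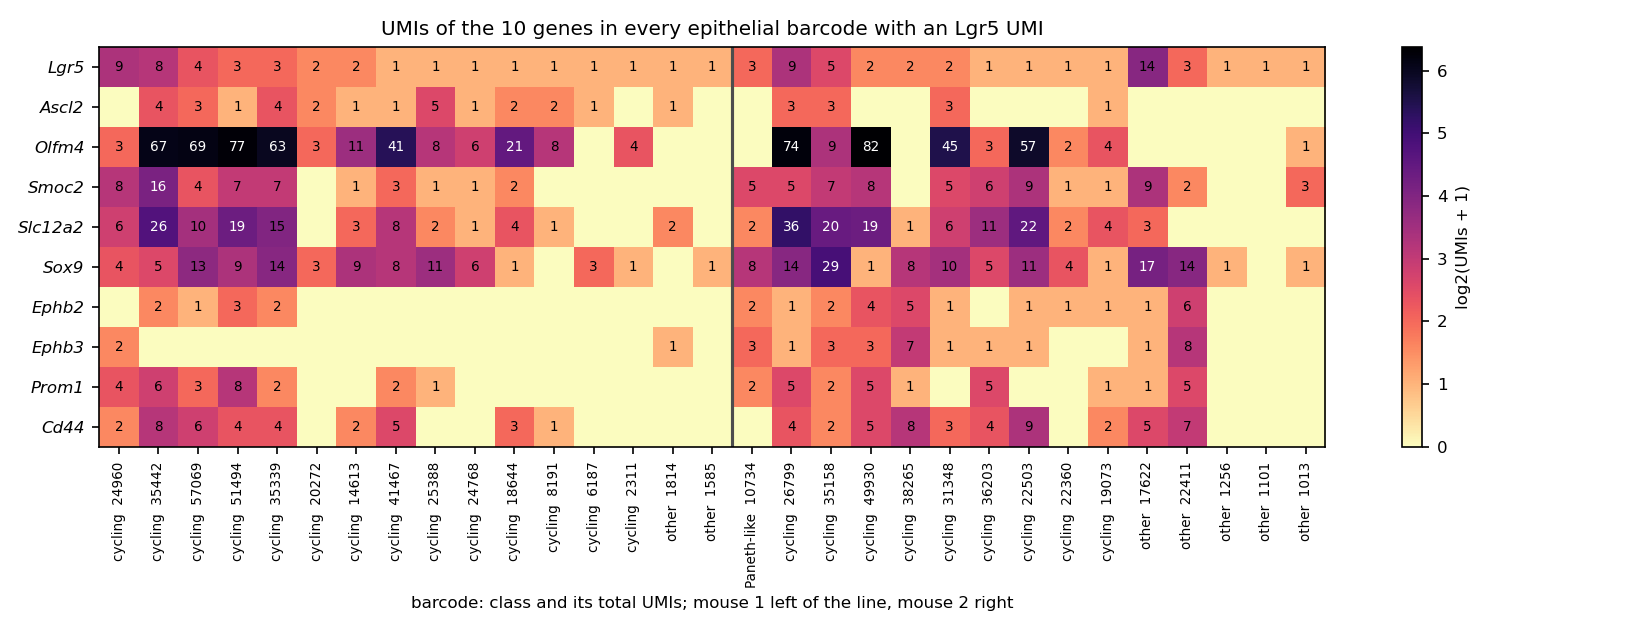
UMIs of the 10 genes (rows) in each of the 31 epithelial barcodes with an Lgr5 UMI (columns, with class and total UMIs), mouse 1 left of the line and mouse 2 right of it, coloured by log2(UMIs + 1). Cycling barcodes carried up to 82 Olfm4 UMIs, while the barcode with the most Lgr5, 14 UMIs in mouse 2, was non-cycling and had neither Olfm4 nor Ascl2.

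Lgr5 and Olfm4 were seen together in cycling barcodes. Olfm4 was detected in 13 of 14 Lgr5-positive cycling barcodes in mouse 1 and in 8 of 9 in mouse 2, against 42.7% and 34.5% of cycling barcodes without Lgr5. The Lgr5-positive barcodes were deeper, with medians of 24864 and 31348 UMIs against 10705 and 11713. At a fixed depth of 1000 UMIs per barcode, Lgr5 was drawn in only 1.82 and 0.747 barcodes on average (of 106 and 36), too few to compare the pair at equal depth. These are few barcodes within 2 animals and carry no test.

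Some Lgr5-positive cycling barcodes also carried secretory markers. In 1 barcode of mouse 1 and 3 of mouse 2, Paneth, goblet or enteroendocrine markers held at least 1% of the UMIs, and Olfm4 had 3 UMIs in the first and 9, 3 and 0 in the others, at 24960 to 38265 UMIs per barcode. Together this is 120 and 109 Olfm4 CPM. In the 13 and 6 Lgr5-positive cycling barcodes below that limit, Olfm4 stood at 1108 and 1535 CPM, with a median of 11 and 51 UMIs and a range of 0 to 77 in mouse 1 and 2 to 82 in mouse 2, so the ranges overlap in both mice. This division was made after the values were seen.

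The number of the 10 genes seen in a barcode summarised the set. Cycling barcodes had a median of 3 genes in both mice, and 56.4% and 57.9% had at least 3, against 2.60% and 2.53% of enterocyte-like barcodes and 0.183% and 0.0418% of leukocytes. The highest number was 9 in mouse 1 and 10 in mouse 2. At 1000 UMIs per barcode, the mean number was 0.751 and 0.867 in cycling, 0.202 and 0.271 in enterocyte-like, 0.585 and 0.887 in the other non-cycling barcodes and 0.0700 and 0.0666 in leukocytes. The separation of cycling and enterocyte-like barcodes was therefore also present at equal depth, and the other non-cycling barcodes of mouse 2 were level with the cycling ones.

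**Figure D5:**
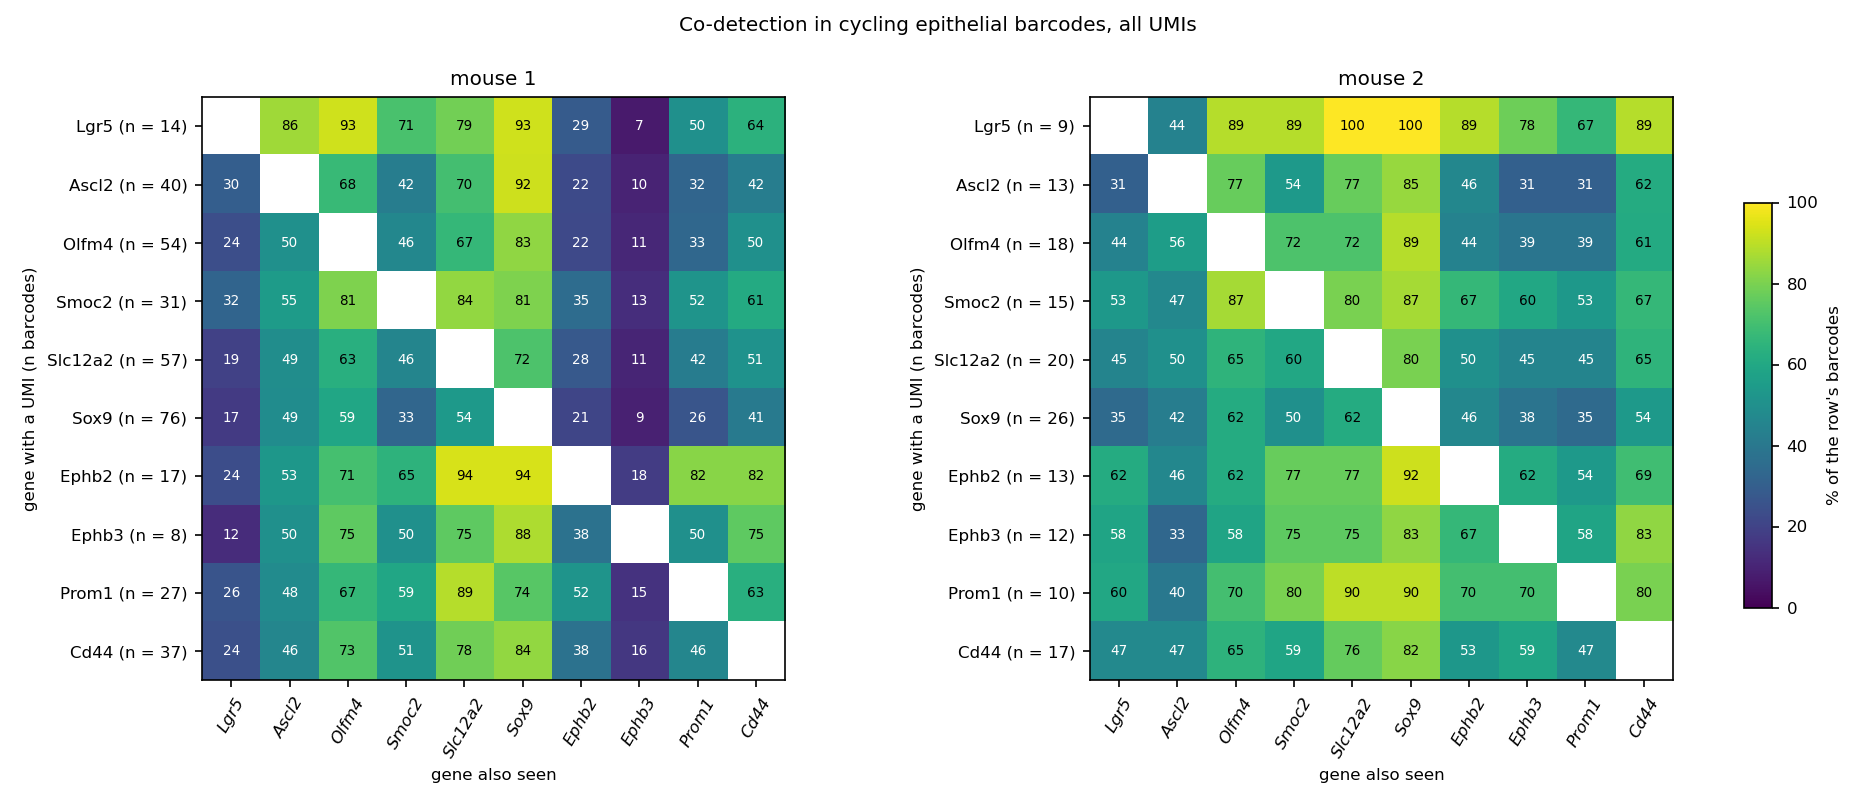
Co-detection of the 10 genes in cycling epithelial barcodes at full depth, with the gene defining the row (n barcodes with a UMI) and the percentage of those barcodes that also had the column's gene as colour and number. The row of Lgr5 reads 93% and 89% for Olfm4, 93% and 100% for Sox9, and 7% and 78% for Ephb3 in mouse 1 and mouse 2.

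At full depth, shares of cycling barcodes with a UMI ran from 7.27% for Ephb3 to 69.1% for Sox9 in mouse 1 and from 23.7% for Lgr5 to 68.4% for Sox9 in mouse 2. Thinned to 1000 UMIs they ran from 0.484% to 20.7% and from 2.08% to 21.4%. Olfm4 was in 49.1% (95% exact interval 39.4% to 58.8%) and 47.4% (31.0% to 64.2%) of cycling barcodes at full depth and in 20.7% and 18.7% at 1000 UMIs. In leukocytes the Olfm4 share was 0.575% and 0.167% at full depth and 0.164% and 0.0371% when thinned. Lgr5 was in 12.7% and 23.7% of cycling barcodes at full depth and in 1.72% and 2.08% at 1000 UMIs. At that depth Lgr5 was near the level of 1 UMI, and no order between the mice was read from it. Where a class is summed, fewer cells with a transcript and less of it per cell cannot be told apart.

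Paneth-like barcodes numbered 15 and 14, under the 20 per mouse set for a test, so their planned comparison with enterocyte-like barcodes was not run and only values are given. Paneth markers held a median of 20.4% and 12.1% of their UMIs. Sox9 had 158 and 455 CPM there, from 15 and 18 UMIs. Smoc2 had 84.3 and 126 from 8 and 5 UMIs, the former in 5 barcodes and the latter in 1. Ephb3, known to hold Paneth cells at the crypt base, had 21.1 and 126 from 2 and 5 UMIs. Olfm4 had 1 UMI and 0 UMIs, and Ascl2 and Cd44 had none in either mouse, which at this depth allows up to 31.6 and 75.9 CPM. Of the 2 values for Lgr5, 0 and 75.9 CPM, the latter came from 3 UMIs of 1 barcode.

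The whole epithelial gate was finally compared with leukocytes, to tell epithelial transcripts from those that leukocytes also make. Of the 10 genes, 9 were higher in epithelium and 1, Cd44, was lower, at 25.0% of all 13121 genes higher and 26.8% lower. Lgr5, Ascl2, Smoc2, Ephb2, Ephb3 and Prom1 had at most 0.599 CPM in the leukocytes of either mouse. They passed the filter on low counts through the epithelium, so they could hardly have been called lower. The count and the median of the 10 genes were therefore partly set by the filter. The median log2 fold change was 6.67 for the 10 genes and -0.12 for all genes. Sox9 had 1.80 and 1.74 CPM in leukocytes and was higher in epithelium by 6.84 ± 0.40 on the log2 scale (adjusted p = 0.000767). Ascl2 had 0.449 and 0.599 in leukocytes (5.33 ± 0.37, adjusted p = 0.000854), Prom1 0.490 and 0.272 (6.51 ± 0.51, adjusted p = 0.001) and Olfm4 1.06 and 0.435 (7.68 ± 0.71, adjusted p = 0.00134). Ephb3 had 1 UMI in all leukocytes of mouse 1 and none in mouse 2, a ratio of 468 over both mice (95% counting interval 81.5 to 18746). Lgr5 had 6 UMIs and 0 UMIs there. After Cd44, the highest leukocyte level was that of Slc12a2, 6.32 and 3.54 CPM, in 3.42% and 1.25% of barcodes.

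Cd44, which leukocytes also use for adhesion, was the gene that was lower. It had 83.9 and 107 CPM in leukocytes, 69.7 and 92.7 in those of plasma cell type, and 30.8 and 61.0 in the epithelial gate, a log2 fold change of -1.21 ± 0.32 (adjusted p = 0.0264). The call was lost with mitochondrial UMIs under 10% (-0.75, adjusted p = 0.13) and with plasma, acinar and immune barcodes left in the gate (-0.07, adjusted p = 0.809). Cycling barcodes alone, at 63.6 and 82.3, lay closer to the leukocytes than the gate as a whole did. The epithelial barcodes were chosen without Ptprc, and immune markers other than those of plasma cells had median shares of at most 0.00592% in cycling barcodes, but 75 of 110 cycling barcodes of mouse 1 had at least 1 such UMI. The part of leukocyte RNA in the Cd44 level was not tested.

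Other genes of the crypt were counted from lists chosen with earlier results of these data known. Of 16 genes enriched in intestinal stem cells outside the 10, 13 were tested in cycling over enterocyte-like barcodes. Of these, 7 were higher and none lower, with a median log2 fold change of 1.61 beside 0.02 for all genes. Among all genes tested, 16.2% were higher and 17.3% lower. Of the 7, Gkn3, Clca3b, Fstl1 and Rgmb had at most 6.29 CPM in enterocyte-like barcodes. They passed the filter on low counts through other classes, so they could hardly have been called lower. Gkn3, which encodes a gastrokine, had 8452 CPM in the cycling barcodes of mouse 1 and 23.5 in those of mouse 2, from 14489 and 16 UMIs, against 6.29 and 0 in enterocyte-like barcodes. Its log2 fold change was 9.58 ± 3.08 (adjusted p = 0.0462). Clca3b rose by 5.88 ± 0.64 (adjusted p = 0.00225), with 91.0 and 103 CPM in cycling barcodes. The follistatin-like Fstl1 had 11 and 5 UMIs in cycling and none in enterocyte-like barcodes (adjusted p = 0.0186 in the edgeR test on sums per mouse). With both mice pooled it was at least 8.33-fold higher in cycling barcodes. In mouse 2 alone no difference was detectable, with 7.35 CPM in cycling barcodes beside a limit of 7.41 in enterocyte-like barcodes. Cdca7 rose by 3.04 ± 0.35 and the bone morphogenetic protein co-receptor Rgmb by 3.03 ± 0.60.

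Of 6 genes named for reserve or position-4 stem cells, 5 were tested and 3 were higher. These 3, Mex3a, Msi1 and Lrig1, had at most 4.94 CPM in the enterocyte-like barcodes of either mouse. They passed the filter on low counts through other classes, so they could hardly have been called lower. Beside this list and those below, 16.2% of all genes were higher and 17.3% lower in the same comparison. Mex3a, an RNA-binding protein, was at least 16.1-fold higher with both mice pooled (31 UMIs against 0). Within mice its cycling levels were 8.17 and 25.0 CPM, beside limits of 0.899 and 7.41 in enterocyte-like barcodes. Msi1 had a ratio of 50.8 over both mice (95% counting interval 13.5 to 428). Lrig1, an inhibitor of growth factor receptors, rose by 4.47 ± 0.79 on the log2 scale (adjusted p = 0.00638). Hopx and Bmi1, named after their values were seen, did not pass, at -0.58 ± 0.40 and -0.11 ± 0.54. Of 8 genes of regenerative or fetal-type epithelium, 3 were tested and 2 were lower in cycling barcodes. These were the epidermal growth factor family ligand Areg (-3.27 ± 0.62, adjusted p = 0.00782) and the cytokine Il33 (-2.17 ± 0.53, adjusted p = 0.0186). Il33 had 9.33 and 5.88 CPM in cycling barcodes. It passed the filter only through the enterocyte-like class, so it could hardly have been called higher. The third tested, Ly6a, which encodes the surface protein Sca-1, did not pass (1.41 ± 0.94, adjusted p = 0.273), at 45.5 and 10.3 CPM in cycling and 13.2 and 0 in enterocyte-like barcodes. Clu, which encodes clusterin, was not tested and had 49.0 and 1.47 in cycling and 11.4 and 0 in enterocyte-like barcodes. Both were named after their values were seen. Of 16 niche ligands, ephrins and Notch genes, 2 were tested and both were higher. The genes not tested went both ways, and those given here were named after their values were seen. Tgfa had 6.42 and 5.88 CPM in cycling and 14.7 and 17.3 in enterocyte-like barcodes, and Efnb2 2.33 and 5.88 against 10.5 and 12.3. Notch1 had 5.83 and 11.8 in cycling and 0.899 and 2.47 in enterocyte-like barcodes, and Dll4 5.25 and 11.8 against no UMI. The ligand Wnt3 had 34 UMIs in cycling barcodes and none in enterocyte-like barcodes, at least a 17.7-fold difference with both mice pooled. It passed the filter on low counts only through the classes that held it. Within mice its cycling levels were 8.75 and 27.9 CPM, beside limits of 0.899 and 7.41 in enterocyte-like barcodes. Paneth-like barcodes had 63.2 and 177 CPM of Wnt3 from 6 and 7 UMIs. The Notch target Hes1 rose by 2.35 ± 0.54 (adjusted p = 0.0146).

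Over 10 sums (5 classes in 2 mice), the genes outside the set whose log2 level followed the mean profile of the 10 genes most closely among 8049 genes were Cnn3, Mrfap1, Eif5b, Dag1, Fam222a, Gspt1, Ctnnal1, Hunk, Tead1 and Ppp1r14b, with Pearson's r from 0.942 to 0.95. Among the 10 genes, r with the mean of the other 9 was highest for Slc12a2 (0.929) and Prom1 (0.873), 0.659 for Olfm4, 0.620 for Sox9, 0.413 for Ascl2 and 0.00866 for Cd44. The sums share libraries and differ in depth, so these values are a description of likeness only.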

How the data were processed

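Single-cell RNA libraries of 2 mice were analysed. The authors deposited UMI counts per gene and cell barcode, made with Cell Ranger 6.1.2 against mm10 per the submitters' processing notes. The deposited counts were not normalized. The limits on genes, UMIs, mitochondrial and haemoglobin shares are given with the results. Epithelial barcodes (Ptprc 0, Epcam at least 1 UMI) were cleared of barcodes with at least 20% plasma cell, 5% acinar or 0.3% other immune markers. These limits, and those of 1% for enterocyte-like and Paneth-like barcodes, were set after the markers' distributions were seen. Of the Paneth markers listed, 16 were found. Scrublet called 1 and 0 doublets and so did not work, and no barcode was removed as a doublet in the values reported.

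For each mouse, the UMI counts of all barcodes in a class were added up and tested with edgeR 4.0.16 (R 4.3.3) by its two-sided quasi-likelihood test with TMM scaling, its filter on low counts and Benjamini-Hochberg adjustment over all genes tested. The SE is the absolute log2 fold change divided by the square root of F. Ratios within 1 mouse used a pseudocount of 0.5. The p-values rest on the spread between 2 mice within classes, moderated over genes, and the main fits did not pair the sums by mouse. Cycling over enterocyte-like was fitted on 6 sums of 3 classes, the third being the other non-cycling barcodes. Each of the other comparisons was fitted on 4 sums of its 2 classes. Same-numbered sums come from the same animal, and their deviations correlated at 0.525 (cycling over non-cycling), 0.330 (over enterocyte-like) and 0.313 (over leukocytes). Shares of barcodes were also given after thinning each barcode to 1000 UMIs. Shares have exact Clopper-Pearson and counts Poisson 95% intervals. Alternatives were DESeq2 1.42.0, a replicate block, no filter, other limits for mitochondrial UMIs, Epcam and cycling, removal of the highest doublet scores, classes by clustering (scanpy 1.11.5, leidenalg 0.10.2) and leaving out each mouse. A further 2, leaving marker-carrying barcodes in and leaving out barcodes over 100000 UMIs, were chosen after the data were seen. The scripts were tested on simulated data.

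The genes and lists were chosen with earlier results of these data known. All 10 genes are named, and from each other list up to 5 genes with the largest change past the threshold and the same direction in both mice in cycling over enterocyte-like barcodes.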

Additional observations from a re-analysis of the deposited data

Results flagged for a closer look

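Lgr5 and Olfm4 UMIs were also found in barcodes outside the comparisons, above their level in leukocytes. Barcodes removed by the filters held 21 Lgr5 UMIs in mouse 1 (4.56 CPM) and 23 in mouse 2 (7.09 CPM), against 0.245 and 0 CPM in leukocytes. The same barcodes held 289 Olfm4 UMIs in mouse 1 (62.7 CPM) and 90 in mouse 2 (27.8 CPM), against 1.06 and 0.435 in leukocytes. A single barcode with 10.0% mitochondrial UMIs held 180 of the 289. Barcodes at or over the mitochondrial limit held all of these Lgr5 UMIs and 287 of the 289 and all 90 of the Olfm4 UMIs, and some of them also failed another limit. Barcodes with both Ptprc and Epcam held 4 Lgr5 UMIs in mouse 2 (0.330 CPM, 95% Poisson interval 0.0898 to 0.844) and 172 Olfm4 UMIs in mouse 1 (4.72 CPM), 89 of them in 1 barcode.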

How the results depend on the processing

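In cycling over non-cycling barcodes, the count of crypt genes higher went from 3 to 8 with the mouse as a replicate block and to 5 with no filter on low counts. The block called 1596 genes higher and 1943 lower. With Epcam at 2 UMIs or more 566 genes were lower, and with plasma, acinar and immune barcodes left in 495 were higher and 303 lower. The median log2 fold change of the 10 genes lay between 0.74 and 2.45 with either mouse left out. In cycling over enterocyte-like barcodes, leaving those barcodes in gave 5 crypt genes higher, the calls of Lgr5, Ephb3 and Prom1 being lost, and 1927 genes higher. Clustering gave 1834 genes higher and a fit of only the compared classes 1792. With either mouse left out the median lay between 2.86 and 4.99 here and between 5.41 and 7.32 over leukocytes. In cycling over non-cycling barcodes the direction reversed without mouse 1 for Lgr5 (-0.045, and 4.54 without mouse 2) and Prom1 (-0.23, and 2.10 without mouse 2), for Sox9 (0.32) with the removed barcodes left in, and for Ephb2 (-0.12) and Ephb3 (-0.20) with cycling set at 2 UMIs or more. The cause was not tested. The block changed no call of a crypt gene other than those named in the report and gave Lgr5, Smoc2, Ephb2, Prom1 and Cd44 a call over non-cycling barcodes. Ephb3 was filtered out under clustering and under the fit of compared classes. The Paneth-like comparison was not run under any setting. Depth limits what can be seen in Paneth-like barcodes, where a count of 0 allows up to 31.6 and 75.9 CPM.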
